A study of Mus musculus with 30 samples.

Results

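The unfolded protein and integrated stress response was followed through 40 genes in the mouse retina, out of 12393 genes measured. A gene entered by its symbol in the platform annotation, and was read from its brightest probe set, judged by the mean of the 30 arrays. No expression difference chose the probe set, but the list of genes was drawn up with earlier results of these data known. All 40 genes had such a probe set. They were taken in 3 blocks: 21 genes of the Xbp1 and Atf6 branch, which make chaperones and degradation factors of the endoplasmic reticulum, 3 sensors (Atf6, Ern1 and Eif2ak3), and 16 genes of the Atf4 branch, which serve amino acid supply, one-carbon metabolism and recovery from translational arrest.

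The endoplasmic reticulum folds proteins that are to be secreted or placed in membranes. When unfolded protein builds up there, the sensor Ern1 splices the message of the transcription factor Xbp1, Atf6 is cut to release a transcription factor, and the kinase Eif2ak3 (PERK) phosphorylates the initiation factor eIF2. Phosphorylated eIF2 slows most translation but favours that of Atf4, and other kinases reach the same step after amino acid shortage, haem deficiency or viral RNA, hence the name integrated stress response. Photoreceptors make large amounts of membrane protein, and these pathways are active in retinal stress and degeneration. Arrays of this kind measure message and not splicing, cleavage or phosphorylation, so the sensors themselves were seen as transcript levels alone.

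The samples were 30 retinas, 1 per pup, in 10 groups of 3. In the model, oxygen-induced retinopathy (OIR), pups breathe 75% oxygen for 5 days from postnatal day 7 (P7), lose retinal capillaries and become hypoxic on return to room air. Injected OIR pups received 100000 endothelial colony-forming cells (ECFC), 10000 CD34+ blood progenitor cells, both together (110000 cells, the combination) or saline into the vitreous, at P5 before the oxygen or at P12 after it, which gave 8 groups. The others were OIR pups without injection and pups kept in normoxia without injection. No strain or genotype is given in the sources used here, and the labels do not give the species of the cells. The cells were taken to be human, in which case mouse probe sets would report mainly the host retina. Signal from the cells themselves was not tested. Each sample label gives P17 as the stage, whereas the protocol allows P12 or P17 and the design text pairs injection at P5 with collection at P12. Comparisons of P5 groups with uninjected or P12 groups may therefore also compare ages.

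The arrays held retina: 5 measured rod genes averaged 13.57 to 13.90 and 6 Muller glia genes 10.93 to 11.56 on the log2 scale in all 30 arrays. Other tissue came along in places. A list of 11 lens genes averaged 7.90 to 14.10 in the arrays of the P5 groups, 6.35 to 7.39 in the P12 groups and 6.29 to 9.37 in uninjected retinas. Spiked-in hybridisation controls averaged 13.23 to 13.65 in the P12 groups and 11.86 to 12.96 elsewhere, with no overlap. Replicates within a group correlated at r = 0.959 to 0.997 across probe sets. In whole retinas, fewer cells of a type and less RNA per cell cannot be told apart. Levels are log2 intensities and changes are log2 differences ± SE, tested over all 30 arrays with limma and Benjamini-Hochberg adjustment over 12393 genes. A gene was counted as changed at an adjusted p under 0.05. Where a count of members at an unadjusted p stands without a count over all genes, no excess can be read from it.

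The promoters of the blocks were read first, because the branches are driven through known DNA elements. RefSeq promoters (GRCm38.p6, 250 bases before to 50 after the annotated start) were found for 37 of the 40 genes, and not for Manf, Hyou1 and Atf6. The endoplasmic reticulum stress response element (CCAAT, then any 9 bases, then CCACG, either strand), through which Atf6 and Xbp1 act, was present in 8 of 19 chaperone block promoters (42.1%), against 39 of 32851 promoters in all (0.119%). It was found in 0 of 18 Atf4 branch promoters and 0 of 2 sensor promoters. These counts describe the letters in the window and do not show binding. The blocks were drawn up by the branch that drives their genes, so a higher share follows from the grouping and is not a test. The matches are given with 5 flanking bases on the gene's strand, with the element in capitals, because Hspa5, Hsp90b1, Pdia6, Creld2, Canx and Dnajc3 among these genes changed in 1 or more of the comparisons that follow.

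Hspa5, chr2:34772020-34772048, + strand: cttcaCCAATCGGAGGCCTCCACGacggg
Hsp90b1, chr10:86705633-86705661, - strand: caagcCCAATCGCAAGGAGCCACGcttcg
Hsp90b1, chr10:86705528-86705556, - strand: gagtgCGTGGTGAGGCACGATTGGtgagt
Pdia6, chr12:17266486-17266514, + strand: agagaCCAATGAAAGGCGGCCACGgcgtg
Canx, chr11:50325795-50325823, - strand: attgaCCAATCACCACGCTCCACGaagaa
Calr, chr8:84847070-84847098, - strand: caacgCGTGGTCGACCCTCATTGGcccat
Creld2, chr15:88819515-88819543, + strand: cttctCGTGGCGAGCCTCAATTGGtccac
Dnajc3, chr14:118937822-118937850, + strand: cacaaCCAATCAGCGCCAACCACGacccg
Syvn1, chr19:6046527-6046555, + strand: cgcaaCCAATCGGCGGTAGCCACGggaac

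The amino acid response element (TGATGNAAN, either strand), the site of Atf4 with C/EBP partners, was present in 5 of 18 Atf4 branch promoters (27.8%), in 1 of 19 chaperone block promoters (Herpud1) and in 1299 of 32851 promoters in all (3.95%). The Atf4 branch count of promoters exceeds its 16 genes because some genes have several annotated starts. Slc7a11 held a pair of matches. The windows are given because Chac1 carried a change between P5 groups while Asns, with the same element, did not.

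Chac1, chr2:119351043-119351061, + strand: ctgccGTTGCATCActcct
Asns, chr6:7693219-7693237, - strand: ccacaTGATGAAACttccc
Atf3, chr1:191183431-191183449, - strand: tcgcaCTTGCATCAccaag
Slc7a11, chr3:50443666-50443684, - strand: gtggcTGATGCAAAcctgg
Slc7a11, chr3:50443648-50443666, - strand: gagaaTTTGCATCAtcatg
Trib3, chr2:152344034-152344052, - strand: tcaggTTTACATCAgccgg
Herpud1, chr8:94386311-94386329, + strand: ggcggGTTGCATCAgcccg

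The whole window of 300 bases is given for Hspa5 as the standard chaperone target and for Chac1 as an Atf4 branch gene that changed, with the element again in capitals. In Hspa5 the full element lay close to the start, at -65 to -47 counted with the start as 0, and in Chac1 the match lay further upstream, at -194 to -186.

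Hspa5, chr2:34771840-34772139, + strand: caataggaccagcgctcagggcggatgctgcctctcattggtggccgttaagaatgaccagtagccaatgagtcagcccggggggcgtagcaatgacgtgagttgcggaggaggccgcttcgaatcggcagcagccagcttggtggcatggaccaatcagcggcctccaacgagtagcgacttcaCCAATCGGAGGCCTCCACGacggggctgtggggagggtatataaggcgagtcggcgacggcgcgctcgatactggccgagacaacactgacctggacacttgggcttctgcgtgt
Chac1, chr2:119350992-119351291, + strand: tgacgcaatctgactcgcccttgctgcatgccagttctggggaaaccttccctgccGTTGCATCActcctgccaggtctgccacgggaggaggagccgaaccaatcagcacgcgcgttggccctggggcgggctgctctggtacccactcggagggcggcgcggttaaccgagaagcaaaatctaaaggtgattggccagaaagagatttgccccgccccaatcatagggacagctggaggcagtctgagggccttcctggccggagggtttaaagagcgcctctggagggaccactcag

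**Figure D1:**
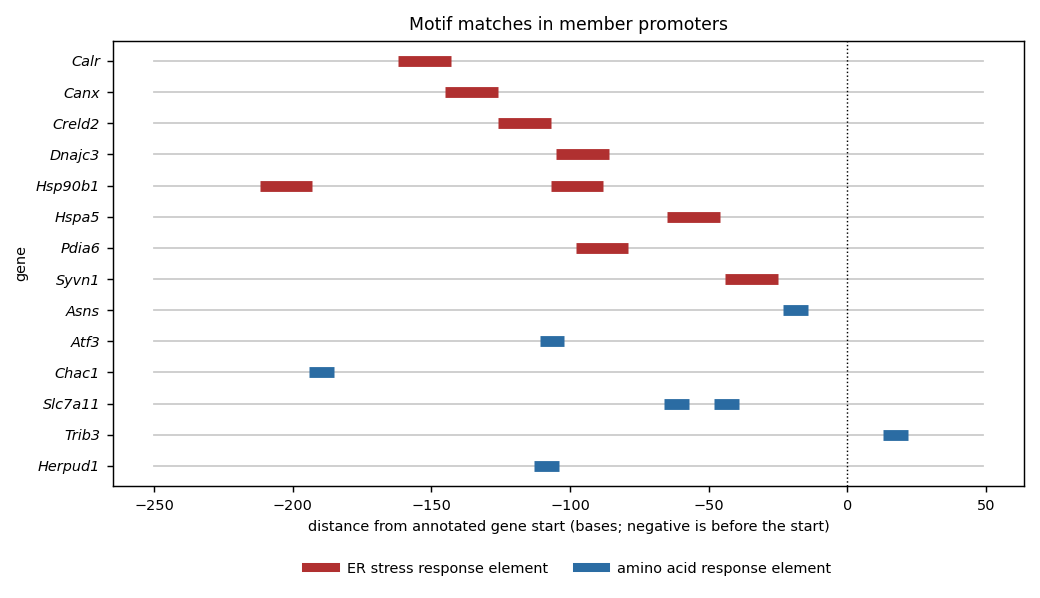
Positions of the element matches in member promoters, by distance in bases from the annotated gene start (dotted line); red bars are endoplasmic reticulum stress response elements and blue bars amino acid response elements. Red bars lie between -212 and -26, and each blue bar but that of Trib3 lies before the start.

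Over the 10 groups the members differed in how far their group means spread. In the chaperone block the range of group means ran from 0.23 (Dnajb11) to 1.35 (Pdia6), with a median of 0.75. In the Atf4 branch it ran from 0.23 (Atf4 itself) to 1.90 (Phgdh), with a median of 0.80, and in the sensors from 0.45 to 0.74. The retinas given CD34+ cells at P5 had the highest group mean for 11 of 21 chaperone block genes, 1 of 3 sensors and 10 of 16 Atf4 branch genes. The lowest group mean lay in P5 saline retinas for 7 chaperone block genes and in normoxia for 7 others. Chac1 and Slc7a11 had overall means in the dimmest 30% of genes.

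OIR itself was compared with normoxia in uninjected retinas. Among the members, 2 of 40 changed, Atf5 in the Atf4 branch and Sdf2l1 in the chaperone block, both higher in OIR. Over all genes 4.56% changed and 3.59% were higher, so the members' share was near the background. The chaperone block had a median difference of 0.17 with 18 of 21 genes above 0, and the Atf4 branch one of 0.23 with 13 of 16 above 0, beside -0.02 over all genes. At an unadjusted p under 0.05 there were 15 members of 40, a count not set against all genes, so no excess can be read from it.

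Atf5, a transcription factor translated with Atf4 under stress, read 9.33, 9.65 and 10.17 in OIR retinas, against 8.78, 8.81 and 8.12 in normoxia. Its groups did not overlap, and normoxia replicate 3 lay lowest. The difference was 1.15 ± 0.21 (2.21-fold, limma adjusted p = 0.00142). Sdf2l1, a cofactor of Hspa5 in the lumen, read 8.44, 8.52 and 8.81 in OIR and 8.14, 7.96 and 7.94 in normoxia. This gap was small, and the difference of 0.57 ± 0.16 had a limma adjusted p of 0.0446. Without OIR replicate 3 it was 0.47 (limma adjusted p = 0.246), without normoxia replicate 3 0.54 (0.169), and without OIR replicate 2, normoxia replicate 1 or normoxia replicate 2 it ran from 0.55 to 0.64 and missed as well. The Atf5 difference passed in each of the 6 fits that left out 1 of these arrays. Normoxia replicate 3 also stood apart in RNA quality, with a Gapdh 3' minus 5' probe set difference of 1.85 on the log2 scale, against 1.40 and 1.39 in the other normoxia arrays, and without it the Atf5 difference was 0.92 (limma adjusted p = 0.0182).

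Several members stood higher in OIR without passing. P4hb, the main protein disulfide isomerase, differed by 0.55 ± 0.16 (limma adjusted p = 0.053), Pdia6, another isomerase, by 0.39 ± 0.12 (0.0538), and Chac1, which degrades glutathione, by 0.70 ± 0.22 (0.0637). Hspa5, the chaperone BiP, differed by 0.16 ± 0.09 and Xbp1 by 0.30 ± 0.13, and Herpud1, a factor of degradation, by -0.20 ± 0.12. In the Atf4 branch, Atf4 differed by 0.23 ± 0.11, Ddit3 (CHOP, a pro-apoptotic transcription factor) by 0.33 ± 0.14, Trib3, a feedback inhibitor of Atf4, by 0.36 ± 0.23, and Asns, asparagine synthetase, by 0.11 ± 0.16. The cystine transporter Slc7a11 differed by -0.06 ± 0.31. When the model was fitted on these 6 arrays alone, 0 members passed in limma (14 at an unadjusted p under 0.05), and Atf5 had an adjusted p of 0.0554. Leaving out normoxia replicate 2 gave 4 members. Of all changed genes 78.8% were higher in OIR, a share that quantile normalization put at 64.5% and median centring at 53.8%, and both members kept their sign under each scaling, although Sdf2l1 missed after quantile normalization (0.45, limma adjusted p = 0.0556).

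Beyond the 40 members, 1 of 28 other endoplasmic reticulum genes and 4 of 32 other genes of the integrated stress response were higher in OIR and none lower. Over all genes 3.59% were higher, near the share in the endoplasmic reticulum list. Stc2, a secreted glycoprotein induced by both hypoxia and endoplasmic reticulum stress, rose by 2.51 ± 0.24, with group means of 9.82 in OIR and 7.31 in normoxia. The oxidase Ero1a, a hypoxia-responsive partner of disulfide isomerases, rose by 0.72 ± 0.18. The amino acid transporters Slc7a1 and Slc7a5 rose by 0.89 ± 0.14 and 0.54 ± 0.11, and the mTOR inhibitor Ddit4 by 0.39 ± 0.11. Microglia genes moved in the same comparison: 3 of 6 were higher in OIR, and their mean ran from 8.47 to 8.78 in OIR and from 7.48 to 7.61 in normoxia. Endothelial genes did too, with 3 of 6 higher in OIR and means of 9.43 to 9.68 in OIR and 8.58 to 8.85 in normoxia. Their part in these results was not tested.

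**Figure D2:**
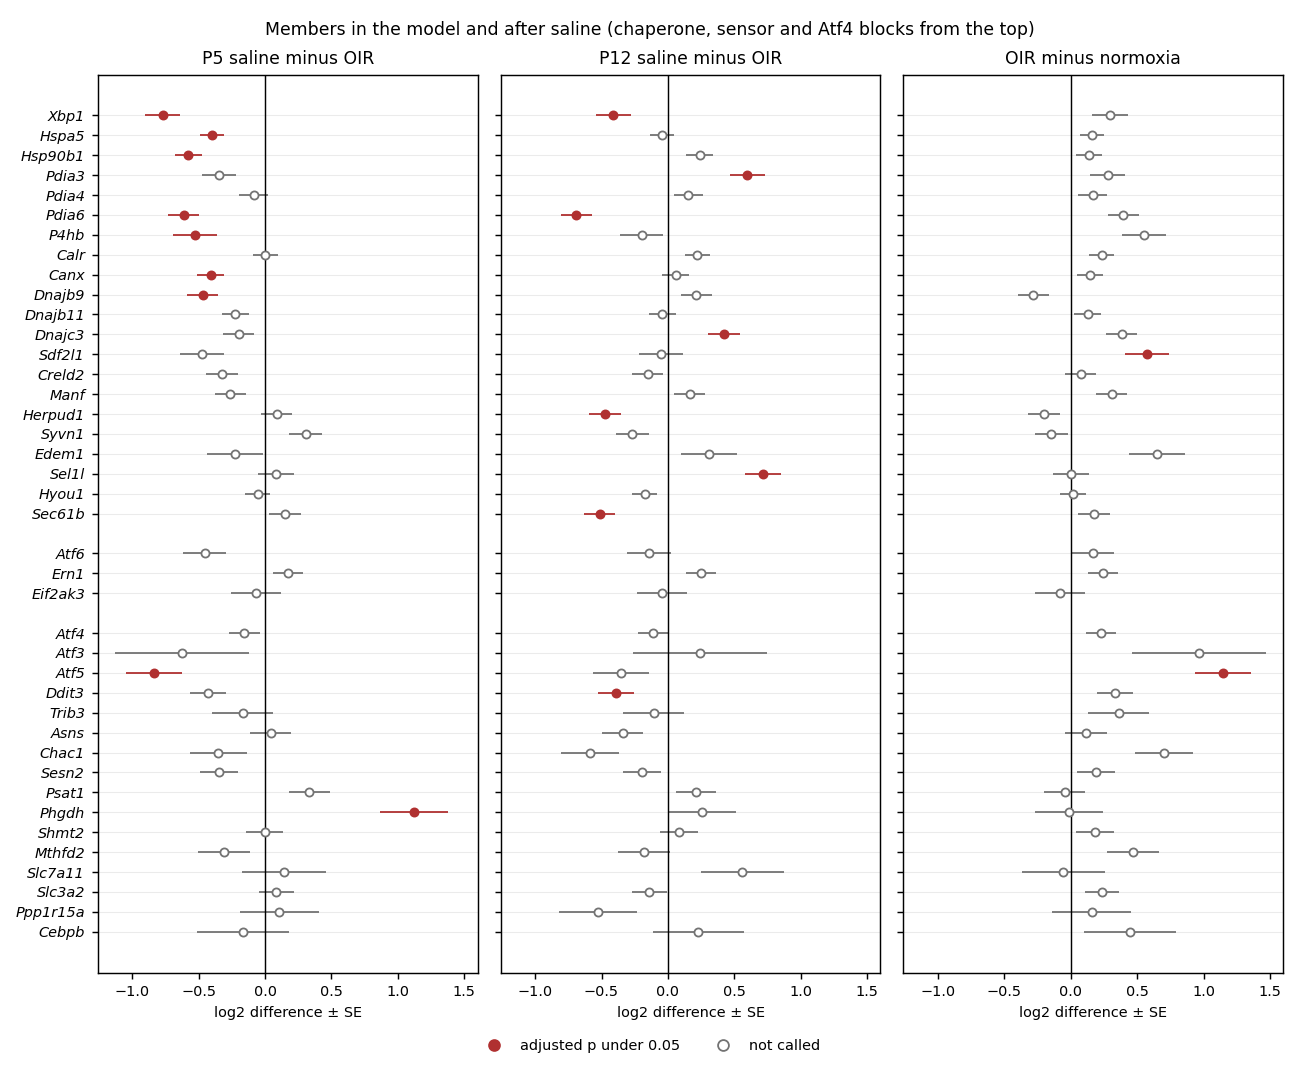
Log2 difference ± SE of each of the 40 members in P5 saline against OIR, P12 saline against OIR and OIR against normoxia; filled red points passed at a limma adjusted p under 0.05. Lower chaperone genes fill the upper part of the P5 saline panel, while the P12 saline panel has red points on both sides of 0.

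Saline injected at P5, set against uninjected OIR, left the chaperone block lower. Of its 21 genes 7 fell and none rose, the block's median difference was -0.26 beside 0.02 over all genes, and 16 of 21 differences were below 0. With Atf5 lower and Phgdh higher, 9 of 40 members changed, 8 lower and 1 higher. Over all genes 8.69% changed, 4.88% lower and 3.81% higher. This comparison uses the same OIR arrays as the one with normoxia.

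Xbp1, whose spliced form is the main activator of chaperone genes, read 8.98, 9.44 and 9.46 in P5 saline retinas, against 10.12, 9.96 and 10.11 in OIR. The P5 saline arrays lay below the OIR arrays, replicate 1 furthest. The difference was -0.77 ± 0.13 (limma adjusted p = 0.000998), and the other Xbp1 probe sets gave -0.82 to -0.57. Hsp90b1, the luminal Hsp90 (GRP94), read 11.72, 12.10 and 12.16 in P5 saline, against 12.60, 12.47 and 12.63 in OIR. Again the groups did not overlap and replicate 1 was lowest, with a difference of -0.58 ± 0.10 (0.000998). Hspa5 read 12.17, 12.29 and 12.45 in P5 saline and 12.65, 12.68 and 12.78 in OIR. It fell by 0.40 on the log2 scale (limma adjusted p = 0.00782).

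The other falls in this block were those of Pdia6 (-0.61 ± 0.12), P4hb (-0.53 ± 0.16), Dnajb9, a co-chaperone and Xbp1 target (-0.47 ± 0.12), and the lectin chaperone Canx (-0.41 ± 0.10). For Pdia6 the second probe set differed by 0.27, in the opposite direction, and with the mean of probe sets the calls of Pdia6 (-0.17) and Canx (-0.34) were lost. Sdf2l1 (-0.47 ± 0.16, limma adjusted p = 0.0748) and Ddit3 (-0.43 ± 0.14, 0.0526) lay near the threshold. Herpud1 (0.09 ± 0.12), Atf4 (-0.16 ± 0.11), Trib3 (-0.17 ± 0.23), Asns (0.04 ± 0.16), Chac1 (-0.35 ± 0.22) and Slc7a11 (0.14 ± 0.31) did not pass.

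Atf5 read 9.04, 8.75 and 8.85 in P5 saline, against 9.33, 9.65 and 10.17 in OIR. The groups were apart by a small gap, and the difference was -0.84 ± 0.21 (limma adjusted p = 0.0145). Phgdh, the first enzyme of serine synthesis, went the other way, at 9.31, 9.81 and 9.15 in P5 saline against 8.25, 8.32 and 8.33 in OIR. It rose by 1.12 ± 0.26 (2.18-fold, 0.00789), and its other probe sets gave 0.19 to 1.10. Among the other pathway genes Stc2 fell by 1.60, Ero1a by 1.17 and Ddit4 by 0.40 on the log2 scale, while Creb3 rose by 0.29 ± 0.08 and Eif2ak4, the amino acid sensing kinase, by 0.43 ± 0.13.

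Lens, pigment epithelium and endothelium moved with this comparison. Of 6 endothelial genes 3 were lower after saline at P5 and all 6 differences were below 0 (median -0.59), with means of 8.64 to 9.12 in P5 saline and 9.43 to 9.68 in OIR, and their part in the chaperone result was not tested. Of 7 immediate early genes, which respond to handling, none passed and 6 were below 0 (median -0.49). All 11 lens genes and 6 of 8 pigment epithelium genes were higher after saline at P5, with lens means of 11.19 to 13.86 in P5 saline and 6.29 to 7.41 in OIR, and pigment epithelium means of 8.50 to 10.33 in P5 saline and 7.54 to 7.82 in OIR. With the lens mean as a covariate in limma, 0 members passed (10 at an unadjusted p under 0.05), the Xbp1 difference being -0.66 (adjusted p = 0.103) and that of Hspa5 -0.21 (0.453). Because lens means did not overlap between these groups, that fit can hardly tell lens RNA from the injection. Fitted on the 6 arrays alone, the calls of Xbp1, Hspa5, Hsp90b1, P4hb, Canx, Dnajb9 and Atf5 were lost. The 2 members that passed in that fit were Pdia6 and Phgdh. Leaving out P5 saline replicate 1 gave 5, with the calls of Hspa5 (-0.33), Canx (-0.26), Dnajb9 (-0.28) and P4hb (-0.35) lost. Without OIR replicate 3 the calls of Atf5 (-0.61), Dnajb9 (-0.43) and P4hb (-0.43) were lost, and without OIR replicate 1 those of Canx (-0.37) and P4hb (-0.57). The P4hb call was also lost without OIR replicate 2 (-0.58).

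Saline at P12 gave another picture, with members on both sides. Against OIR, 8 of 40 members changed, 5 lower and 3 higher. Over all genes 21.3% changed, 15.4% lower and 5.95% higher, so the share of members was close to the background. The medians of the chaperone block (-0.04) and the Atf4 branch (-0.12) stood beside -0.03 over all genes. Here the P12 saline arrays also had higher hybridisation controls (13.37 ± 0.12 against 12.49 ± 0.04 in OIR, SD, n = 3), which cannot be told apart from the injection. Their Gapdh 3' minus 5' difference was lower, at 1.18, 1.05 and 1.04 on the log2 scale in P12 saline, against 1.45, 1.38 and 1.23 in OIR, without overlap. That of beta-actin went the other way, at -0.27, -0.13 and -0.16 in P12 saline, against -0.33, -0.32 and -0.31 in OIR, also without overlap. The part of these measures in the result was not tested.

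Sel1l, the scaffold of the ubiquitin ligase that clears misfolded proteins, read 10.65, 10.64 and 10.54 in P12 saline, against 9.94, 9.85 and 9.89 in OIR. The arrays of each group lay close together and far from the other group, and the rise was 0.72 ± 0.14 (1.65-fold, limma adjusted p = 0.000552). The other 3 Sel1l probe sets differed by 0.56, 0.02 and 0.0011, and with the mean of probe sets the rise was 0.33 and missed (0.104). Pdia3, a disulfide isomerase for glycoproteins, rose by 0.60 ± 0.13 (12.47, 12.35 and 12.45 in P12 saline, against 11.55, 11.93 and 11.98 in OIR). Dnajc3, which inhibits Eif2ak3, rose by 0.42 ± 0.12, a call lost without P12 saline replicate 1 (0.40) or OIR replicate 2 (0.38). Its other probe sets ran from -0.10 to 0.42, and the mean of probe sets gave 0.24 (limma adjusted p = 0.163).

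Pdia6 read 9.66, 9.93 and 9.83 in P12 saline, against 10.42, 10.48 and 10.60 in OIR. That gap was the clearest of the falls, -0.69 ± 0.12 (limma adjusted p = 0.000204), but the second Pdia6 probe set gave 0.51, and the mean of both -0.09 (0.538). Sec61b, a subunit of the translocation channel, fell by 0.51 and Herpud1 by 0.47 on the log2 scale, both with arrays that did not overlap. Xbp1 (-0.41 ± 0.13) and Ddit3 (-0.39 ± 0.14) passed with adjusted p of 0.0285 and 0.0429. With the hybridisation controls as a covariate these became -0.12 and -0.18 and missed, as did Sec61b at -0.27 and Herpud1 at -0.43. Herpud1 also missed with median centring (-0.29) and the mean of probe sets (-0.33). Xbp1 and Ddit3 missed with quantile normalization and median centring, and Xbp1 with the mean of probe sets, its other probe sets running from -0.30 to -0.06. Without P12 saline replicate 1 the count of members was 5, with Xbp1 at -0.38 and Ddit3 at -0.35. These calls also missed without P12 saline replicate 2 (-0.33 and -0.37) or OIR replicate 3 (-0.39 and -0.30), that of Xbp1 without OIR replicate 1 (-0.38) and that of Ddit3 without OIR replicate 2 (-0.41).

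Other members differed less: Hspa5 by -0.05 ± 0.09, Sdf2l1 by -0.05 ± 0.16, Atf4 by -0.11 ± 0.11, Trib3 by -0.11 ± 0.23, Asns by -0.34 ± 0.16, Chac1 by -0.59 ± 0.22 and Slc7a11 by 0.56 ± 0.31. Of 32 other integrated stress response genes 8 fell and 1 rose, beside 15.4% of all genes lower and 5.95% higher. The falls included those of the alanine and tryptophan tRNA synthetases Aars (-0.72 ± 0.13) and Wars (-0.67 ± 0.12), and of the asparagine enzyme Nars (-0.37 ± 0.07). Of 28 other endoplasmic reticulum genes 4 fell, a share near the 15.4% of all genes that were lower. Among them were Txndc11 (-0.83 ± 0.13) and the Hspa5 exchange factor Sil1 (-0.57 ± 0.11), while Ero1a rose by 0.52 ± 0.18. The balance moved with scaling. In the deposited values 27.9% of all changed genes were higher, with 3 members higher and 5 lower. After quantile normalization the share was 47.7%, with 6 members higher and 4 lower, and after median centring, which put the median of all genes at 0.16, it was 68.9%, with 10 higher and 2 lower.

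**Figure D3:**
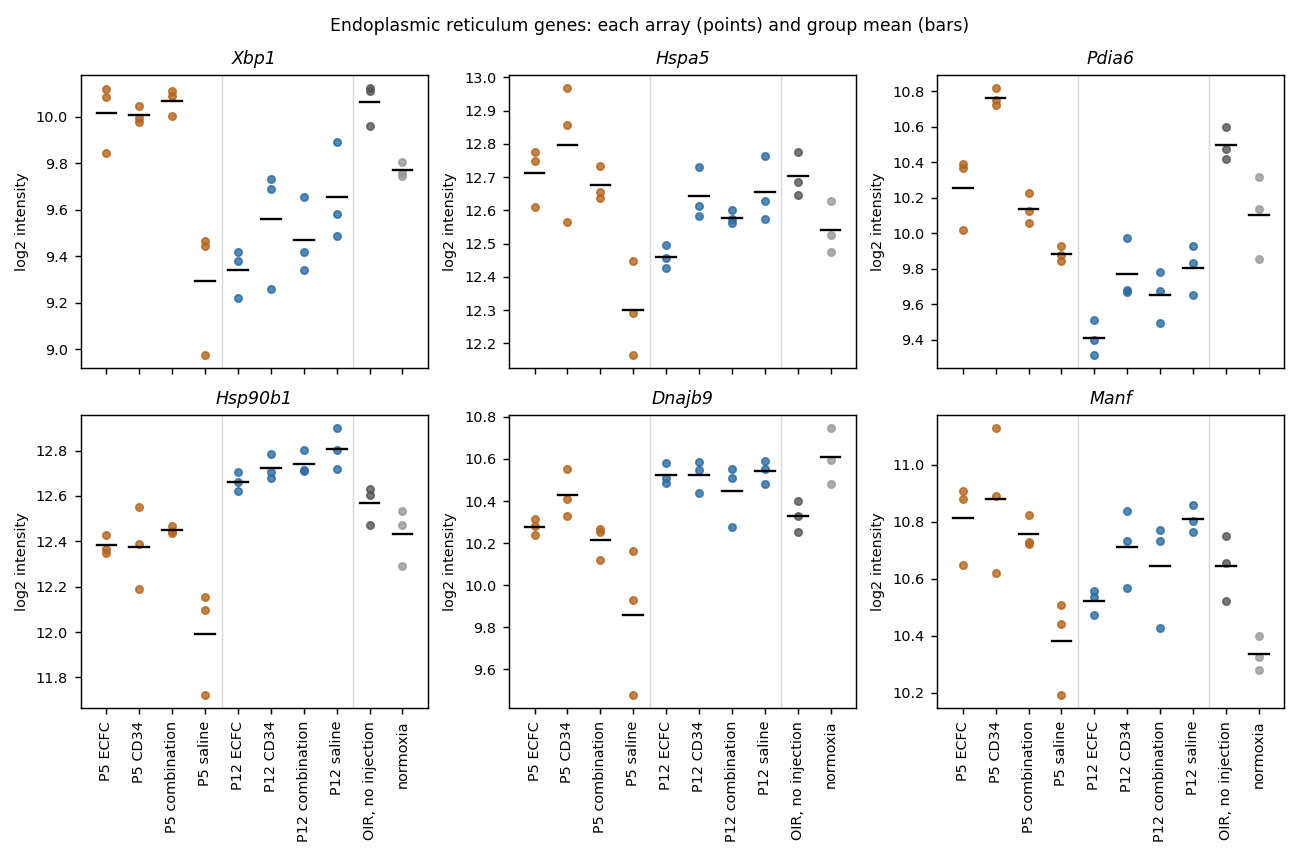
Log2 intensity of 6 endoplasmic reticulum genes in each array (points) with group means (bars), for the P5 groups (orange), the P12 groups (blue) and uninjected OIR and normoxia (grey). P5 saline arrays have the lowest Xbp1 and Hspa5 group means, and the 3 cell groups at P5 lie above them.

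The cell injections at P5 were each set against P5 saline, so the 3 comparisons share those control arrays. After CD34+ cells genes of both branches were higher, where 10 of 40 members changed, all higher after the cells, 8 in the chaperone block and 2 in the Atf4 branch. Over all genes 8.46% changed and 3.07% were higher. The chaperone block had a median of 0.28 with 20 of 21 genes above 0, and the Atf4 branch one of 0.47 with 14 of 16 above 0, beside -0.03 over all genes.

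Pdia6 read 10.75, 10.72 and 10.82 after CD34+ cells, against 9.85, 9.93 and 9.88 in P5 saline. Both groups were tight and wide apart, with a rise of 0.88 ± 0.12 (1.84-fold, limma adjusted p = 0.00034); the second probe set gave 0.23. Xbp1 read 10.05, 9.98 and 9.995 after CD34+ cells, against 8.98, 9.44 and 9.46 in P5 saline. The CD34 arrays lay together and near those of uninjected OIR, and the rise was 0.71 ± 0.13 (1.64-fold, 0.00292). Hspa5 read 12.97, 12.57 and 12.86 after CD34+ cells and 12.17, 12.29 and 12.45 in P5 saline. It rose by 0.50 ± 0.09 (1.41-fold, 0.00283), and its other probe set gave 0.60.

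The Xbp1 target Dnajb9 rose by 0.57 ± 0.12 (10.41, 10.33 and 10.55 after CD34+ cells, against 9.48, 10.16 and 9.93 in P5 saline). Creld2, a secreted stress-inducible protein, rose by 0.53 ± 0.12, Manf, a secreted factor known to protect neurons and retinal cells, by 0.50 ± 0.12, Sdf2l1 by 0.55 ± 0.16 and Hsp90b1 by 0.39 ± 0.10. None of these overlapped between the groups. Among degradation factors, Herpud1 differed by 0.20 ± 0.12, the ubiquitin ligase Syvn1 by 0.03 ± 0.12 and Sel1l by -0.14 ± 0.14, without passing. Edem1 did not pass either. Sel1l was the only gene of the block below 0, and Derl1, a degradation gene beyond the members, did pass. These genes therefore do not speak for degradation as a whole. Among the sensors Eif2ak3 stood 0.50 ± 0.19 higher, Atf6 0.26 ± 0.16 and Ern1 0.06 ± 0.11, without passing.

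In the Atf4 branch Ppp1r15a (GADD34, which restores translation by directing dephosphorylation of eIF2) read 8.50, 10.79 and 9.34 after CD34+ cells, against 8.50, 8.21 and 8.41 in P5 saline. Replicate 2 was far above the others and replicate 1 lay within the saline range. Its rise was 1.17 ± 0.30 (2.25-fold, limma adjusted p = 0.0163), and without replicate 2 it was 0.54 (0.0341). Cebpb, a partner of Atf4, read 10.43, 9.01 and 9.84 after CD34+ cells and 8.97, 8.56 and 8.15 in P5 saline. Here replicate 2 was the lowest of its group and close to the highest saline array, and the rise was 1.20 ± 0.35 (0.0324), with 0.12 from the other probe set. Chac1 (0.67 ± 0.22, 0.0542), the mitochondrial folate enzyme Mthfd2 (0.60 ± 0.20, 0.0579) and Phgdh (0.78 ± 0.26, 0.0592) lay just outside the threshold. Atf4 (0.10 ± 0.11), Ddit3 (0.24 ± 0.14), Trib3 (0.43 ± 0.23), Asns (0.03 ± 0.16) and Slc7a11 (0.84 ± 0.31) did not pass. Beyond the members, 1 of 28 other endoplasmic reticulum genes and 1 of 32 other integrated stress response genes were higher and none lower. Over all genes 3.07% were higher, near these shares. The lists had medians of 0.09 (19 of 28 above 0) and -0.05 (15 of 32 above 0). The 2 genes were Derl1, a channel for degradation (0.37 ± 0.11), and Eif4ebp1, a translation repressor and Atf4 target (0.76 ± 0.21).

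CD34 replicate 1 stood apart within its group. Its chaperone block averaged 0.38 above the mean of the 30 arrays, against -0.03 and 0.14 in the other CD34 retinas, and its Atf4 branch 0.80 against 0.38 and 0.32. Its lens mean was 7.90 against 14.10 and 14.04, its microglia mean 10.45 against 8.35 and 9.25, and its mean over the 7 immediate early genes 9.31 against 8.27 and 8.77. Its hybridisation controls averaged 11.86 against 12.71 and 12.87, while those of the P5 saline arrays averaged 12.72, 11.92 and 12.03. Between the groups, all 7 immediate early genes stood higher after CD34+ cells and none passed (median 0.55), with means of 8.27 to 9.31 after CD34+ cells and 8.10 to 8.30 in P5 saline. Likewise 3 of 6 microglia genes and 3 of 8 pigment epithelium genes were higher after CD34+ cells. Microglia means ran from 8.35 to 10.45 after CD34+ cells and from 8.03 to 8.74 in P5 saline, and pigment epithelium means from 10.24 to 10.87 after CD34+ cells and from 8.50 to 10.33 in P5 saline. With the lens mean as a covariate 10 members passed, with the pigment epithelium mean 7 and with the microglia mean 5.

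Without CD34 replicate 1 the count was 5. Pdia6 (0.89), Xbp1 (0.69), Hspa5 (0.41), Dnajb9 (0.58) and Ppp1r15a (1.69) passed, while Creld2 (0.41), Manf (0.37), Hsp90b1 (0.30), Sdf2l1 (0.29) and Cebpb (0.86) did not. Pdia6, Xbp1, Hspa5 and Dnajb9 passed whichever of the 6 arrays was left out. Hsp90b1 also missed without P5 saline replicate 1 (0.25), Ppp1r15a without P5 saline replicate 2 (1.08) or replicate 3 (1.19), Sdf2l1 without any 1 saline array (0.52 to 0.59), and Cebpb without P5 saline replicate 2 (1.20) or replicate 3 (1.0) or CD34 replicate 3 (1.16). Fitted on these 6 arrays alone, 0 members and 0 of all genes passed in limma (12 and 1404 at an unadjusted p under 0.05), with adjusted p of 0.293 for Pdia6 and Xbp1, so the calls rest on the spread pooled over all 10 groups.

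**Figure D4:**
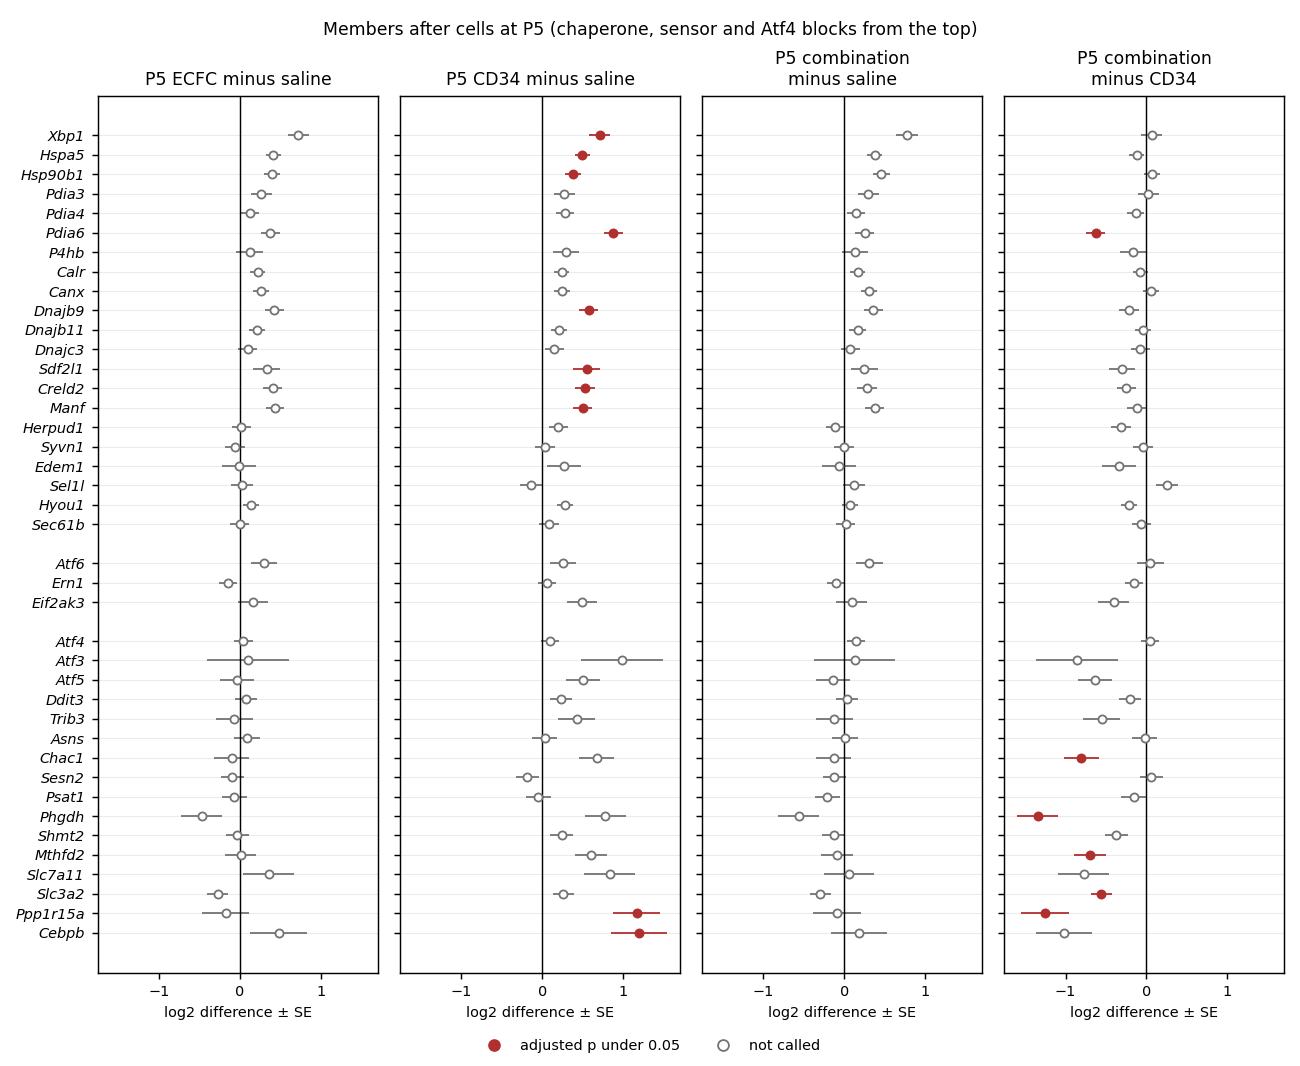
Log2 difference ± SE of each member after ECFC, CD34+ cells and the combination at P5 against P5 saline, and in the combination against CD34+ cells; filled red points passed at a limma adjusted p under 0.05. The chaperone block leans right in the first 3 panels, while the Atf4 branch leans right after CD34+ cells and left in the combination against CD34+ cells.

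ECFC at P5 gave no member that passed (0 of 40, and 0% of all genes, by limma), with 11 members and 779 genes at an unadjusted p under 0.05. Xbp1 read 10.08, 10.12 and 9.84 after ECFC, against 8.98, 9.44 and 9.46 in P5 saline. These arrays did not overlap, and the difference was 0.72 ± 0.13 (limma adjusted p = 0.0888). Hspa5 differed by 0.41 ± 0.09 (0.278), Hsp90b1 by 0.39 ± 0.10, Manf by 0.43 ± 0.12 and Dnajb9 by 0.42 ± 0.12. The chaperone block had 18 of 21 differences above 0 and a median of 0.22, whereas the Atf4 branch had 7 of 16 and a median of -0.04, beside -0.02 over all genes. Sdf2l1 (0.33 ± 0.16), Herpud1 (0.02 ± 0.12), Atf4 (0.04 ± 0.11), Ddit3 (0.08 ± 0.14), Trib3 (-0.07 ± 0.23), Asns (0.09 ± 0.16), Chac1 (-0.10 ± 0.22) and Slc7a11 (0.36 ± 0.31) did not pass.

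The combination at P5 likewise gave none that passed (0 of 40, and 0% of all genes, by limma), with 11 members and 978 genes at an unadjusted p under 0.05. Xbp1 read 10.09, 10.004 and 10.11 after the combination, against 8.98, 9.44 and 9.46 in P5 saline. Its lowest array lay above the highest saline array, and the difference was 0.77 ± 0.13 (limma adjusted p = 0.0666), while Hsp90b1 differed by 0.46 ± 0.10 (0.2) and Hspa5 by 0.37 ± 0.09 (0.261). Chaperone block differences were above 0 in 18 of 21 genes (median 0.17), and those of the Atf4 branch in 6 of 16 (median -0.11), beside -0.03 over all genes. Sdf2l1 (0.25 ± 0.16), Herpud1 (-0.11 ± 0.12), Atf4 (0.14 ± 0.11), Ddit3 (0.03 ± 0.14), Trib3 (-0.12 ± 0.23), Asns (0.01 ± 0.16), Chac1 (-0.13 ± 0.22) and Slc7a11 (0.06 ± 0.31) did not pass. Leaving out P5 saline replicate 3 gave 1 member for ECFC and 2 for the combination.

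Xbp1 was thus 0.71 to 0.77 above the same saline arrays after each of the 3 cell preparations, and passed after CD34+ cells alone. The sizes and SEs of these differences were alike, so passing turned on the adjustment over all genes. It called 8.46% of genes after CD34+ cells and 0% after ECFC or the combination. Quantile normalization and median centring each gave 1 member for ECFC and for the combination, and the hybridisation control covariate gave more. A difference between ECFC and CD34+ cells was not tested. Relative to the mean of the 30 arrays, the block stood at 0.11, 0.11 and -0.04 after ECFC, at 0.38, -0.03 and 0.14 after CD34+ cells, at 0.02, 0.05 and 0.04 after the combination, and at -0.29, -0.11 and -0.12 in P5 saline. No P5 cell array fell below the highest saline array. Lens means in the ECFC arrays (9.39 to 10.11) were below those of all P5 saline arrays (11.19 to 13.86), those of the combination ranged from 9.12 to 12.62, and the part of the lens RNA in these differences was not tested beyond the covariate fit, in which 0 members passed for either preparation by limma (9 for ECFC and 8 for the combination at an unadjusted p under 0.05).

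The combination was then set against CD34+ cells at P5, which asks whether adding ECFC changed the response. The Atf4 branch was lower: 5 of its 16 genes fell and none rose, 14 of 16 differences were below 0, and the median was -0.60 beside -0.01 over all genes. In the chaperone block Pdia6 alone fell, and the median was -0.12. The 6 members together compare with 7.83% of all genes changed and 3.56% lower.

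Phgdh read 8.59, 9.45 and 8.54 in the combination, against 10.13, 10.57 and 9.92 after CD34+ cells. The combination arrays lay below the CD34 arrays, with replicate 2 nearest, and the difference was -1.34 ± 0.26 (limma adjusted p = 0.00276). Ppp1r15a read 8.45, 8.13 and 8.28 in the combination and 8.50, 10.79 and 9.34 after CD34+ cells. The gap to CD34 replicate 1 was small, and the difference of -1.25 ± 0.30 (0.0107) missed without combination replicate 2 (-1.18). Without CD34 replicate 2 it was -0.63 and passed (limma adjusted p = 0.015). Pdia6 read 10.13, 10.23 and 10.06 in the combination, against 10.75, 10.72 and 10.82 after CD34+ cells. It fell by 0.63 on the log2 scale (limma adjusted p = 0.0026).

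Slc3a2, the heavy chain of several amino acid transporters, fell by 0.56 (10.35, 10.36 and 10.49 in the combination, against 11.27, 10.94 and 10.68 after CD34+ cells). Chac1 read 6.17, 6.34 and 6.23 in the combination and 7.65, 6.99 and 6.51 after CD34+ cells. Its fall of 0.80 rests on dim values with a wide CD34 group. Mthfd2 fell by 0.69 (7.70, 7.69 and 7.59 in the combination, against 8.66, 8.23 and 8.17 after CD34+ cells). Cebpb differed by -1.02 ± 0.35 and Atf5 by -0.64 ± 0.21 without passing, as did Slc7a11 (-0.78 ± 0.31), Trib3 (-0.55 ± 0.23), Herpud1 (-0.31 ± 0.12), Sdf2l1 (-0.30 ± 0.16) and Ddit3 (-0.21 ± 0.14). Xbp1 (0.06 ± 0.13), Hspa5 (-0.12 ± 0.09), Atf4 (0.04 ± 0.11) and Asns (-0.02 ± 0.16) lay near 0.

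**Figure D5:**
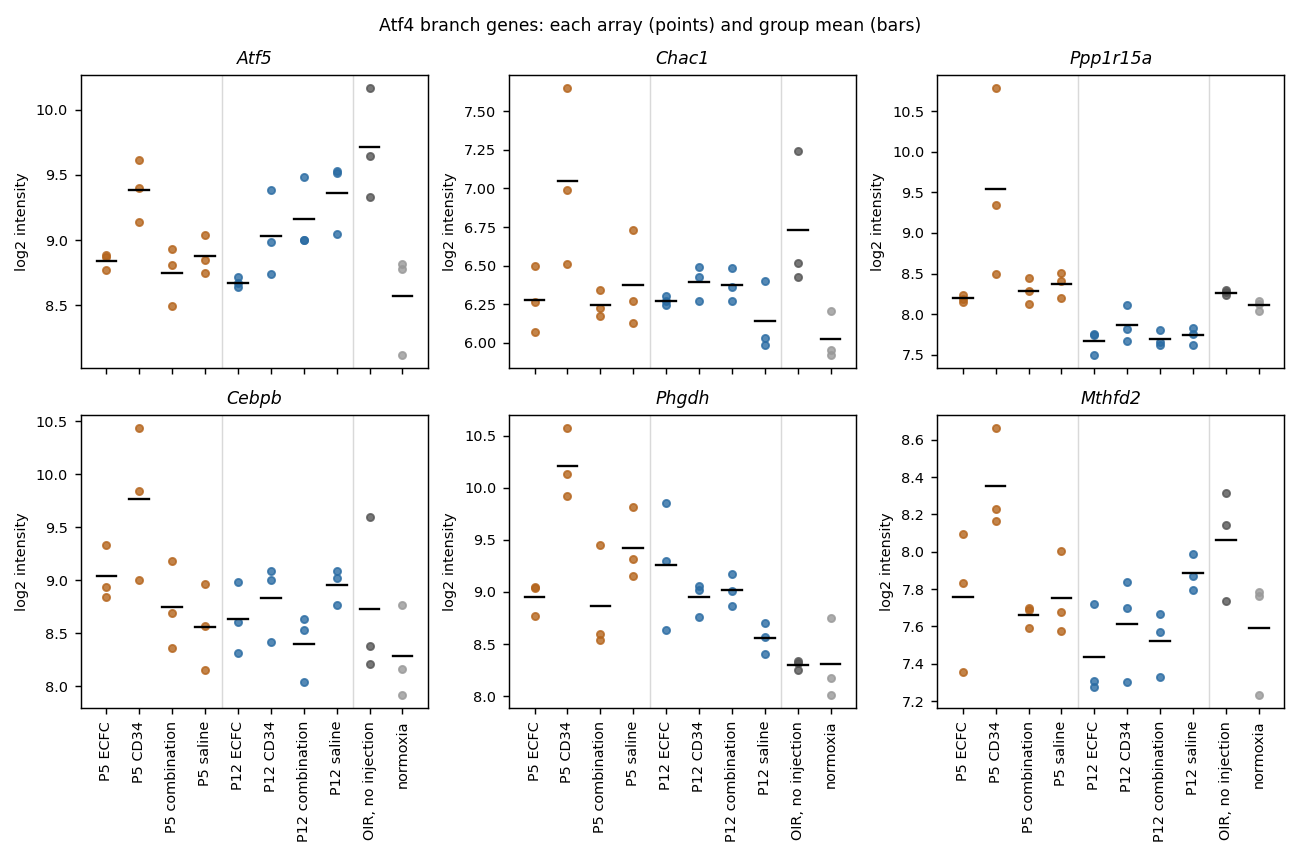
Log2 intensity of 6 Atf4 branch genes in each array (points) with group means (bars), in the same order and colours of groups as the plot of endoplasmic reticulum genes. CD34 retinas at P5 have the highest group mean for 5 of the 6 genes, with a wide spread for Ppp1r15a and Cebpb, and Atf5 is highest in OIR.

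Of 32 other integrated stress response genes 3 fell and none rose, beside 7.83% of all genes changed and 3.56% lower. The list's median was -0.03 with 15 of 32 differences above 0. Nupr1, a stress-induced chromatin protein, averaged 9.59 in the combination and 12.82 after CD34+ cells, a difference of -3.23 ± 0.66. Eif4ebp1 fell by 0.84 and the leucine transporter Slc7a5, the partner of Slc3a2, by 0.63 on the log2 scale. None of the 28 other endoplasmic reticulum genes measured from the list passed. All 7 immediate early genes stood lower in the combination and 1 passed (median -0.68), with means of 7.86 to 8.41 in the combination and 8.27 to 9.31 after CD34+ cells. Pigment epithelium genes were lower in the combination, 4 of 8, with means of 7.82 to 9.41 in the combination and 10.24 to 10.87 after CD34+ cells, and microglia means were 8.36 to 8.84 in the combination and 8.35 to 10.45 after CD34+ cells. With either marker mean as a covariate 3 members passed, and with the lens mean 8. Phgdh, Chac1 and Slc3a2 missed with the pigment epithelium mean, and Chac1, Mthfd2 and Slc3a2 with the microglia mean. The part of those cells in the result was otherwise not tested, nor was that of the immediate early genes.

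Pdia6 and Phgdh passed whichever of these 6 arrays was left out, although Phgdh missed with the pigment epithelium covariate. The count was 3 without combination replicate 2 and 10 without CD34 replicate 2. Without CD34 replicate 1 the calls of Chac1 (-0.50), Mthfd2 (-0.54) and Slc3a2 (-0.41) missed, and those of Chac1 and Mthfd2 also missed without any 1 combination array (-0.85 to -0.77 and -0.71 to -0.66). Fitted on these 6 arrays alone, 0 members and 0 of all genes passed in limma (10 and 1650 at an unadjusted p under 0.05). Of all changed genes 54.5% were higher in the combination, against 60.9% with quantile normalization and 64.8% with median centring, and none of the 6 members turned its sign.

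At P12 the members did not follow this pattern. ECFC at P12 against P12 saline gave 0 of 40 members and 0.0161% of all genes (2 genes). At an unadjusted p under 0.05 there were 13 members, a count not set against all genes. The chaperone block had 19 of 21 differences below 0 and a median of -0.24, and the Atf4 branch 13 of 16 and -0.18, beside 0.02 over all genes. Pdia6 and Creld2 differed by -0.40 ± 0.12 each and Atf5 by -0.69 ± 0.21, at a limma adjusted p of 0.18, with no overlap of the groups in any of the 3. Xbp1 differed by -0.31 ± 0.13, Hspa5 by -0.20 ± 0.09, Sdf2l1 by -0.41 ± 0.16, Ddit3 by -0.21 ± 0.14 and Trib3 by -0.27 ± 0.23.

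CD34+ cells at P12 gave 0 of 40 and 0% of all genes (0 members and 643 genes at an unadjusted p under 0.05 in limma). Chaperone block differences ran from -0.23 to 0.23 and those of the Atf4 branch from -0.59 to 0.39. The 3 members with the smallest p were Sec61b (0.23 ± 0.12), Ern1 (-0.18 ± 0.11) and Atf5 (-0.33 ± 0.21). The combination at P12 gave 0 of 40 and 0% as well (1 member and 1226 genes at an unadjusted p under 0.05), led by the serine enzyme Shmt2 (-0.30 ± 0.14), Pdia4 (-0.22 ± 0.11) and Creld2 (-0.23 ± 0.12). For the combination against CD34+ cells at P12 the result was again 0 of 40 and 0% (4 members and 561 genes at an unadjusted p under 0.05), led by Sec61b (-0.28 ± 0.12), Eif2ak3 (-0.41 ± 0.19) and Slc3a2 (-0.28 ± 0.13). None of the 28 other endoplasmic reticulum and 32 other integrated stress response genes on the lists passed in these P12 comparisons and in those of ECFC and the combination with saline at P5.

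Whether the cells acted differently at P5 and P12 was tested as the difference between the effects, each against its own saline group. For CD34+ cells 3 of 40 members were more positive at P5, against 1.9% of all genes changed and 0.403% more positive. Pdia6 differed by 0.91 ± 0.17 (limma adjusted p = 0.0127), Xbp1 by 0.80 ± 0.19 (0.0339) and Hspa5 by 0.51 ± 0.13 (0.0456). For ECFC, Xbp1 was the 1 member of 40, at 1.03 ± 0.19 (0.0445), against 0.0323% of all genes changed and 0.00807% more positive. For the combination 0 of 40 and 0% of all genes passed, with 12 members and 1419 genes at an unadjusted p under 0.05, and Xbp1 stood at 0.96 ± 0.19 (0.138). The chaperone block medians were 0.37 for CD34+ cells, 0.42 for ECFC and 0.36 for the combination, and those of the Atf4 branch 0.40, 0.18 and 0.09, beside -0.08, -0.03 and -0.02 over all genes. Of these calls Pdia6 held in each of 12 fits that left out 1 array, whereas Xbp1 passed in 3 of 12 for CD34+ cells and 4 of 12 for ECFC, and Hspa5 in 1 of 12. For CD34+ cells the count was 10 without CD34 replicate 2 at P5, and for ECFC it was 3 without ECFC replicate 1 at P12 or replicate 3 at P5. For CD34+ cells 21.3% of all changed genes were more positive at P5, a share that became 30.5% with quantile normalization and 36.6% with median centring. Both saline groups enter each value, and Xbp1 and Hspa5 were lower in P5 saline than in OIR, so these differences are relative to saline of the same day.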

How the data were processed

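Total RNA of 30 retinas was measured on expression arrays. Per the labels' protocols, 1 retina per pup was extracted with the RNeasy Mini Kit. The authors deposited normalized log2 intensities, and the submitters' processing notes name Partek. How they were background corrected and normalized is not given in the sources used here. They were used unchanged. The labels do not say whether pups shared litters, so p-values measure the spread between these retinas.

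The platform annotation gave 1 gene symbol to 20380 of 22690 probe sets, several to 691 and none to 1555, and 64 more were controls. For 29 identifiers RefSeq had no match. The probe set with the highest mean per symbol left 12393 genes. limma 3.58.1 in R 4.3.3 fitted 1 mean per group over 30 arrays (20 residual degrees of freedom) with 14 contrasts, eBayes and Benjamini-Hochberg adjustment, two-sided, and genes were called at an adjusted p under 0.05. The fit was tested on simulated data. The number of arrays, 3 per group, limits the precision.

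Named genes were 10 fixed ones (Hspa5, Xbp1, Sdf2l1, Herpud1, Atf4, Ddit3, Trib3, Asns, Chac1 and Slc7a11), the members that passed, up to 8 of smallest p in each direction (or the 3 of smallest p where none passed), and up to 4 other pathway genes. The text gives part of these. Syvn1, Sel1l, the sensors and members near the threshold were named after their values were seen. Members, marker lists (rods, Muller glia, lens, pigment epithelium, blood, microglia, endothelium, handling) and tests were chosen with earlier results of these data known. Blood genes, 3 of them measured, averaged 6.67 to 8.07. Samples of equal replicate number were checked for pairing: the correlations of their deviations ran from -0.45 to 0.45 over 11 comparisons, with 0 comparisons above 0.1 in all pairs, so no pairing was used. Alternatives were quantile normalization, median centring, the mean of probe sets, leaving out the dimmest 30% of genes, trend and robust eBayes, a replicate block, covariates for lens genes and for 18 hybridisation control probe sets, fitting only the groups compared, and leaving out each array. Covariates for microglia and pigment epithelium were added after seeing the data. Promoters are from RefSeq (GRCm38.p6). 0 of the table's columns of values were left unmapped.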

Additional observations from a re-analysis of the deposited data

Results flagged for a closer look

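Changes after cells at P5 and at P12, each against saline of the same day, differed by a test of the difference itself for 4 results. For ECFC the Xbp1 difference was 0.72 ± 0.13 at P5 and -0.31 ± 0.13 at P12, and the P5 value exceeded the P12 value by 1.03 ± 0.19 (limma adjusted p = 0.0445). For CD34+ cells Xbp1 stood at 0.71 ± 0.13 at P5 and -0.09 ± 0.13 at P12, apart by 0.80 ± 0.19 (0.0339). Hspa5 stood at 0.50 ± 0.09 at P5 and -0.01 ± 0.09 at P12, apart by 0.51 ± 0.13 (0.0456), and Pdia6 differed between the days by 0.91 ± 0.17 (0.0127). Injection day also went with the hybridisation controls (13.23 to 13.65 in the P12 groups, 11.86 to 12.96 in the P5 groups) and with lens RNA, and their part was not tested beyond the covariate fits. Age at collection may differ with injection day as well, since the design text pairs injection at P5 with collection at P12, and its part was not tested. No group had 4 or more arrays, so single arrays were not tested as outliers.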

How the results depend on the processing

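The counts of members called moved with the settings as follows. With the hybridisation controls as a covariate they were 17 for P5 saline against OIR, 20 for CD34+ cells, 12 for ECFC and 8 for the combination against saline at P5, and 15, 14 and 10 for the P5 minus P12 differences of CD34+ cells, ECFC and the combination. With the lens covariate 0 members passed for P5 saline against OIR, 1 for OIR against normoxia and 0 for the ECFC difference between days. With only the groups compared, 0 passed for OIR against normoxia, CD34+ cells at P5, the combination against CD34+ cells at P5 and the CD34 and ECFC differences between days, and 2 for P5 saline. Leaving out dim genes gave 5 for OIR against normoxia, 5 and 0 for the CD34 and ECFC differences between days, and 1 for the combination at P5. Quantile normalization gave 5 and median centring 4 for OIR, and both gave 7 and 4 for the CD34 and ECFC differences and 1 for ECFC and for the combination at P5. The mean of probe sets gave 3 for P12 saline. Trend and robust settings gave 5 for OIR, 6 and 2 for the CD34 and ECFC differences and 1 for the combination at P5. The microglia covariate gave 5 for CD34+ cells at P5 and 3 for the combination against CD34+ cells, and the pigment epithelium covariate 3 for the last. The causes were not tested.

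The replicate block gave 1 member for OIR against normoxia, 0 for the ECFC difference between days and 13 for CD34+ cells at P5. The numbers do not pair the retinas, and no other count moved by over 1.5 times.

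Leaving out 1 array gave 1 to 4 members for OIR, 5 to 9 for P12 saline, 5 to 10 for P5 saline, 0 to 1 for ECFC at P12 and at P5, 5 to 15 for CD34+ cells and 0 to 2 for the combination at P5, 3 to 10 for the combination against CD34+ cells at P5, and 0 to 3 and 1 to 10 for the ECFC and CD34 differences between days. It gave 0 in each fit for CD34+ cells and the combination at P12, the combination against CD34+ cells at P12 and the combination's difference between days. Of 382 values of called members under other settings 305 passed again and 77 did not. Of 258 with 1 array left out 181 passed and 77 did not. No called value changed sign in either set. Dim signal limits Chac1 and Slc7a11, whose differences may be understated.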
